A study of Rattus norvegicus with 200 samples.

Results

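The comparison described here set microglia libraries of rats on a high-fat diet (HFD) that were fed only in the dark phase against those of rats on the same diet that could eat at any hour (ad libitum), in the part of the day when rats normally eat. It held 34 of the 200 libraries of the series, chosen by the labels for treatment and for Zeitgeber time (ZT, hours after lights on). HFD dark-feeding had 16 libraries (5 at ZT14, 5 at ZT18 and 6 at ZT22), and HFD ad libitum had 18 (6 at each of the 3 times). All came from the brains of wild-type adult male Wistar rats, an outbred stock, and the labels name the cells as microglia. Bulk RNA was sequenced, so fewer cells of a type and less RNA per cell cannot be told apart. The labels do not say that each library came from a separate rat, so a p-value weighs a difference against the spread between libraries only. Of 20361 genes in the count table, 14018 had a mean of at least 1 CPM (count per M, or 10 to the power of 6, counts of a scaled library) over the 34 libraries and were tested.

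Microglia are the resident macrophages of the brain, which survey the tissue, clear debris and respond to injury and to signals of metabolic state. Their identity depends on the growth factor TGF-beta and on transcription factors such as Irf8 and Mef2c. Rats are nocturnal and eat mainly at night; food given in the dark phase only keeps intake in that active phase, which feeding at will on an energy-dense diet tends to blur. Meal timing is a signal for the molecular clocks of many tissues, in which Arntl and Clock drive the Per, Cry and Nr1d genes that in turn repress them, and for insulin and nutrient sensing through Irs1 and the kinase mTOR.

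Total counts ran from 4.83 to 11.64 M in HFD dark-feeding and from 3.78 to 9.00 M in HFD ad libitum. The titles carry running numbers whose meaning the labels do not give. Every HFD dark-feeding title was numbered 67 or above, whereas 15 of the 18 HFD ad libitum titles were numbered 46 or below and 3 (1 at ZT14 and 2 at ZT18) above 46. At ZT22 every ad libitum title was numbered 46 or below, so at that time schedule and title order cannot be told apart. Means over the late-titled ad libitum libraries therefore hold ZT14 and ZT18 only, while the dark-feeding and early ad libitum means given beside them also hold ZT22; fold changes said to be against late or early titles are within ZT14 and ZT18. The defining microglia genes P2ry12, Tmem119, Cx3cr1, Csf1r and Aif1 were detected in every library. Per transcript length, the 25 homeostatic microglia genes had a median of 17 FPKM in the middle library of HFD dark-feeding and 19.6 FPKM in that of HFD ad libitum, below 18 oligodendrocyte markers at 173 FPKM and 187 FPKM and 24 neuron markers at 49.8 FPKM and 54.4 FPKM in the same groups, so RNA of other brain cells was plentiful in libraries labelled microglia.

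Dark-feeding on HFD went with many small differences in the dark phase. With time as a factor, 640 genes passed the threshold (edgeR's quasi-likelihood test, Benjamini-Hochberg adjusted p under 0.05), which was 4.57% of those tested. They were 348 higher genes (2.48%) and 292 lower genes (2.08%) in dark-feeding. The median log2 fold change (log2FC, dark-feeding minus ad libitum) was 0.18 in the higher genes and -0.22 in the lower ones, and 21 of the 640 differed by 1.5-fold or more. No gene had dark-feeding and ad libitum libraries that did not overlap (0 of 14018), while 2940 genes had an unadjusted p under 0.05. Without HFD ad libitum ZT14 replicate 2 the count of 640 was 426. The number of calls moved with the time points and with the order of the titles, as described after the genes. Of the 73 called genes picked by the naming rule and reported here, 46 kept an edgeR adjusted p under 0.05 without any single library and 27 lost it without at least 1.

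Some genes of smooth muscle, pericytes and the brain's fibrous coverings fell in dark-feeding. Tagln, which binds actin in smooth muscle cells, ran from 2.1 to 5.92 CPM in dark-feeding (median 4.53) and from 3.37 to 8.12 CPM in ad libitum (median 6.68). The groups overlapped, yet at ZT22 every dark-feeding library (2.1 to 4.95 CPM) lay below every ad libitum library (5.76 to 8.12 CPM). At ZT22 schedule and title order cannot be told apart, and how many of all genes lacked overlap there was not counted. The lowest ad libitum value, 3.37 CPM, was that of the late-titled library at ZT14. The log2FC of Tagln was -0.59 ± 0.12 (standard error, SE) with an edgeR adjusted p of 0.00326. Acta2, smooth muscle actin, averaged 0.814 ± 0.338 CPM in dark-feeding and 2.14 ± 1.16 CPM in ad libitum (SD, n = 16 and 18), and fell with a log2FC of -1.40 ± 0.26 (edgeR adjusted p = 0.0031). It met the limit of 1 CPM for testing only through the ad libitum libraries. Vtn, vitronectin, also fell, by 0.27 on the log2 scale. These 3 were the called genes among 11 tested markers of pericytes and smooth muscle, whose median log2FC was -0.19 beside 0.0033 over all genes tested. Of 17 tested markers of brain endothelium 0 passed (edgeR), with a median of -0.09. The late-titled ad libitum libraries were unlike the others for Acta2, at 0.6 CPM on average in the 3 above number 46 and 2.45 CPM in the 15 up to 46; for Vtn these means were 7.17 and 7.58 CPM. Vtn lost its call without any of 3 libraries, with an edgeR adjusted p of up to 0.053.

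Igf2, a growth factor made by the meninges and vessel coverings of the adult brain, ran from 11.5 to 29.8 CPM in dark-feeding (median 19.5) and from 15.2 to 42.2 CPM in ad libitum (median 27.8). The distance was small at ZT18, with means of 21.8 and 24.1 CPM in dark-feeding and ad libitum, and wider at ZT22, with 20.5 and 36.5 CPM. Its log2FC was -0.56 ± 0.13 (edgeR adjusted p = 0.00955). Aldh1a2, which makes retinoic acid in the meninges, fell by 0.62, the GABA transporter Slc6a13 by 0.58 and the sulfate transporter Slc13a4 by 0.44 on the log2 scale. These were 4 of 18 tested markers of meningeal and perivascular fibroblasts, all 4 lower, with a median log2FC of -0.31 over the list. That median was -0.24 at ZT14, -0.08 at ZT18 and -0.64 at ZT22, and it was -0.10 against late and -0.15 against early ad libitum titles. The collagens Col1a1, Col1a2 and Col3a1 and decorin (Dcn) belong to the same list and did not pass. The summed level of the fibroblast list ran from 403 to 637 CPM in dark-feeding and from 462 to 652 CPM in ad libitum, and that of the mural list from 206 to 388 CPM and from 246 to 393 CPM in the same groups; their part in the result was not tested. In the light phase the median over the fibroblast list was -0.30, against -0.31 in the dark phase, and on chow in the dark phase it was 0.15.

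Of 24 tested markers of cytotoxic lymphocytes, 4 rose in dark-feeding. Il2rb, the beta chain of the interleukin-2 receptor carried by natural killer and T cells, ran from 3.78 to 17.3 CPM in dark-feeding (median 7.46) and from 2.51 to 11.8 CPM in ad libitum (median 5.57). The 3 highest values of the 34 libraries were dark-feeding libraries at ZT22, and the groups overlapped at every time. Its log2FC was 0.64 ± 0.19 (edgeR adjusted p = 0.0455). The killing proteins granzyme K (Gzmk) and perforin (Prf1) rose with log2FC of 1.30 and 0.85, and Tbx21, the T-bet transcription factor of these cells, with 1.08. No other member of the list passed, and its median log2FC was 0.35. Against late ad libitum titles that median was 0.04, and against early ones 0.49. Levels were low: Gzmk averaged 2.38 ± 1.76 CPM in dark-feeding and 0.94 ± 0.52 CPM in ad libitum (SD, n = 16 and 18). The T cell gene Cd3e, at 3.53 and 3.09 CPM in the middle libraries of dark-feeding and ad libitum, did not pass (log2FC 0.08). The summed level of the list ran from 89.6 to 231 CPM in dark-feeding and from 76.6 to 168 CPM in ad libitum; the middle values were 135 CPM in dark-feeding, 118 CPM in all ad libitum libraries and 154 CPM in the late-titled ones. Its part in the result was not tested. For Il2rb the 3 late-titled ad libitum libraries averaged 8.26 CPM, close to dark-feeding at 9.17 CPM, and the 15 others 5.37 CPM; for Tbx21 the late and early ad libitum means were alike at 0.983 and 0.974 CPM, with 2.11 CPM in dark-feeding. Leaving out 1 library ended the call of Il2rb in 25 of 34 cases and that of Prf1 in 26 of 34, with edgeR adjusted p of up to 0.0857 and 0.101 without HFD dark-feeding ZT18 replicate 1, while Gzmk and Tbx21 passed in all 34. Both averaged under 1 CPM in ad libitum and met the limit for testing only through the dark-feeding libraries. Of 34 list members in the count table, 24 met that limit.

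Among genes of the resting microglial state, 3 of 24 tested fell and none rose, with a median log2FC of -0.15. They were regulators of microglial identity. Tgfbr1, the TGF-beta type I receptor, ran from 57.2 to 105 CPM in dark-feeding (median 69) and from 64.4 to 108 CPM in ad libitum (median 87.4), a log2FC of -0.30 ± 0.06 (edgeR adjusted p = 0.00702). Dark-feeding lay lower at all 3 times, and the late-titled ad libitum libraries (mean 91.8 CPM) sat with the other ad libitum libraries (87 CPM). Irf8 averaged 30.5 ± 5.62 CPM in dark-feeding and 38.0 ± 7.08 CPM in ad libitum (SD, n = 16 and 18), a log2FC of -0.32 ± 0.08 (edgeR adjusted p = 0.0173). Mef2c fell by 0.21 on the log2 scale, a call that was lost in 23 of 34 cases when 1 library was left out (edgeR adjusted p up to 0.0803 without HFD dark-feeding ZT14 replicate 3). The surface genes P2ry12 (log2FC -0.15), Tmem119 (-0.14), Csf1r (-0.15) and Cx3cr1 (-0.06) did not pass. Of the 24 genes 2 had a positive log2FC. The summed level of the list ran from 1596 to 2707 CPM in dark-feeding (median 1848) and from 1504 to 2719 CPM in ad libitum (median 2101), and its part in the result was not tested.

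**Figure D1:**
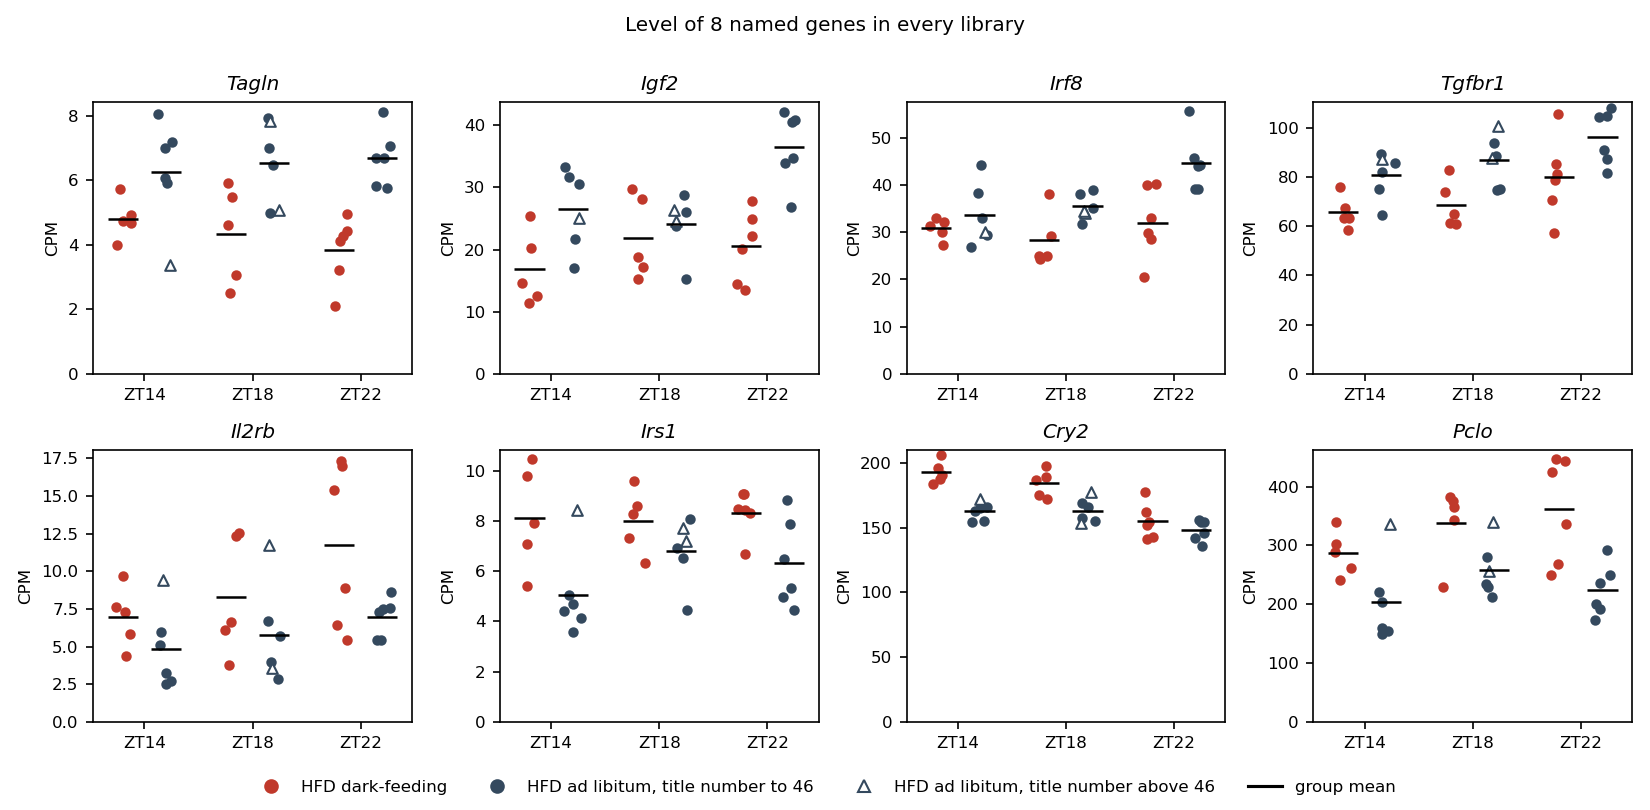
Level in CPM (vertical axes, from 0) of 8 genes in each of the 34 libraries by Zeitgeber time, with HFD dark-feeding left of HFD ad libitum, group means as lines and the 3 ad libitum libraries with title numbers above 46 as open triangles. Tagln, Igf2, Irf8 and Tgfbr1 had lower means in dark-feeding at every time and Il2rb, Irs1, Cry2 and Pclo higher ones; for Irs1 at ZT14 the triangle lies with the dark-feeding libraries.

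Lists of microglial activation held no call. Among 21 tested genes of the disease-associated state, 18 of the type I interferon response, 18 of NF-kB and inflammatory cytokines, 15 Toll-like receptor genes, 15 complement genes and 13 of MHC class II, 0 passed in each list by edgeR's test. With 4.57% of all genes called, lists of this size would hold few calls or none at the share over all genes. Over the same lists the median log2FC lay between -0.07 for the Toll-like receptor genes and 0.09 for MHC class II. Lysosome and phagosome genes (41 tested) and genes of fatty acid oxidation (27 tested) also gave 0 calls. Astrocyte markers (25 tested) had no call either, though 2 of the 25 had a positive log2FC and their median was -0.15. That median was -0.08 at ZT14, 0.0056 at ZT18 and -0.38 at ZT22, where every ad libitum title was early. Against late ad libitum titles it was 0.12 and against early ones -0.03. Of 18 oligodendrocyte markers 0 had a positive log2FC, the median was -0.13, and Cnp, an enzyme of myelin, was the single call (-0.23), lost without any of 3 libraries (edgeR adjusted p up to 0.0508). The summed oligodendrocyte level ran from 12220 to 22260 CPM in dark-feeding and from 14760 to 23360 CPM in ad libitum. With marker scores of astrocytes, oligodendrocytes, neurons, endothelium and mural cells as terms in the model, 1 gene passed (LOC100912604, which was not among the 640; edgeR), while the 640 genes had a median size of 0.20 on the log2 scale with these terms and 0.19 without them. Since the 640 genes were chosen in the same libraries, these sizes are a description only. Scores of fibroblasts, lymphocytes and microglia were not among the terms, and the part of cell mixture was not tested.

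Genes of insulin and nutrient signalling were higher in dark-feeding where they passed. Irs1, the adaptor that links the insulin receptor to PI3 kinase, ran from 5.39 to 10.5 CPM in dark-feeding (median 8.36) and from 3.6 to 8.82 CPM in ad libitum (median 5.92). Its log2FC was 0.43 ± 0.11 (edgeR adjusted p = 0.0181). Mtor and Rptor, the kinase and the scaffold of the nutrient-sensing mTORC1 complex, rose by smaller amounts. Rptor averaged 106 ± 7.81 CPM in dark-feeding and 94.3 ± 6.07 CPM in ad libitum (SD, n = 16 and 18), a log2FC of 0.17 ± 0.04 with an edgeR adjusted p of 0.00534, and Mtor had a log2FC of 0.13 ± 0.03. These 3 of 25 tested genes were all the calls of the list, whose median log2FC was 0.05. That median was -0.0038 against late and 0.04 against early ad libitum titles. The list held long transcripts, with a median effective length of 5069 nt beside 2398 nt over all genes tested. Longer transcripts were more often on the higher side, as described below. For Mtor the late and early ad libitum means were 141 and 140 CPM beside 153 CPM in dark-feeding, whereas for Irs1 they were 7.78 and 5.72 CPM beside 8.17 CPM.

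Lipid and sugar metabolism gave single calls in both directions. The counts per list are to be read beside the 4.57% of all genes that passed, and the calls are given as values of single genes. Mlxipl (ChREBP), a transcription factor that responds to glucose, averaged 53.3 ± 13.3 CPM in dark-feeding and 80.2 ± 7.7 CPM in ad libitum at ZT22 (SD, n = 6 each), but 49.1 and 50.9 CPM in the same groups at ZT14. Its log2FC was -0.34 ± 0.08 over the 3 times (edgeR adjusted p = 0.00955). Elovl1, which elongates very long fatty acids, fell by 0.22 and Acaca, the first committed enzyme of fatty acid synthesis, rose with a log2FC of 0.13, which makes 1 higher and 2 lower among 17 genes of fatty acid synthesis. Of the ceramide synthases, Cers2 fell by 0.16 and Cers1 rose with 0.20, beside a higher Smpd3, a neutral sphingomyelinase (0.20). Hk2, a hexokinase of the first step of glycolysis, fell by 0.25 and Slc16a1, a lactate transporter, by 0.16, 2 of 26 glycolysis genes. Fdft1, squalene synthase, was the single call among 24 cholesterol synthesis genes (-0.16), and Mylip, which degrades the LDL receptor, the single one among 13 LXR targets (-0.21). Against late ad libitum titles Mlxipl (0.0097), Elovl1 (0.018), Acaca (-0.0034) and Smpd3 (-0.035) had the opposite sign, and Acaca also did with a spline of title number (-0.0070). Without 1 library Acaca lost its call in 23 of 34 cases, Hk2 in 21, and Cers1 and Cers2 in 16 each, with edgeR adjusted p of up to 0.0795, 0.0715, 0.073 and 0.0676.

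Of 20 core clock genes, 2 rose and none fell, beside 2.48% higher and 2.08% lower over all genes tested. Cry2, a repressor of the clock, had 184, 188, 190, 196 and 206 CPM in the 5 dark-feeding libraries at ZT14, while the 6 ad libitum libraries ran from 154 to 172 CPM around a median of 164 CPM. At ZT14 the groups did not overlap, and at ZT22 they did, with means of 155.1 CPM in dark-feeding and 148.2 CPM in ad libitum. How many of all genes lacked overlap at ZT14 alone was not counted. Over the 3 times the log2FC of Cry2 was 0.16 ± 0.03 (edgeR adjusted p = 0.00498). Arntl (log2FC 0.12), Per2 (0.17), Nr1d1 (0.03) and Dbp (-0.0013) did not pass, with edgeR adjusted p of 0.113, 0.329, 0.843 and 0.996. The value for Nr1d1 joins differences of opposite sign. At ZT14 it averaged 114.8 ± 9.64 CPM in dark-feeding (n = 5) and 90.88 ± 6.729 CPM in ad libitum (SD, n = 6). At ZT18 and ZT22 the dark-feeding means were the lower ones, at 81.45 and 50.12 CPM beside 85.5 and 56.71 CPM. At ZT14 alone 3 of the 20 clock genes passed, all higher (edgeR), beside 3.94% of all genes tested that were higher at that time.

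Calls in neuronal and housekeeping lists went by gene rather than by list. Pclo and Bsn, the giant scaffold proteins of the presynaptic active zone, rose. Pclo averaged 331 ± 71.8 CPM in dark-feeding and 229 ± 56.5 CPM in ad libitum (SD, n = 16 and 18), a log2FC of 0.53 ± 0.10 (edgeR adjusted p = 0.00319), and Bsn had a log2FC of 0.23 ± 0.05. The vesicle protein Vamp2 fell by 0.14. Synaptic genes counted 3 higher and 2 lower of 34. A positive log2FC was found in 29 of the 34 (median 0.06), beside 7194 of 14018 over all genes tested. The synaptic median was 0.0090 against late and 0.11 against early ad libitum titles, and the list had a median effective length of 4372 nt. The count of positive log2FC was 56 of 75 cytosolic ribosomal protein genes (median 0.05), 14 of 24 neuron markers, 11 of 35 genes listed under complex I and 4 of 14 heat shock genes. The ribosomal median was -0.04 at ZT14, 0.27 at ZT18 and -0.05 at ZT22. It was 0.0090 against late and 0.15 against early ad libitum titles. Among 24 neuron markers 4 fell, among them Stmn2 (-0.20), Vamp2 and the calmodulin-binding Nrgn (-0.32), with a list median of 0.01. The effective transcript lengths of Pclo and Bsn are 15490 and 15670 nt and that of Nrgn 1097 nt. Of the 35 genes listed under complex I of the respiratory chain 3 fell. They were led by Ndufa1 at 4.54 ± 1.04 CPM in dark-feeding and 6.17 ± 1.29 CPM in ad libitum (SD, n = 16 and 18; log2FC -0.45), with Ndufa4 (-0.20) and Ndufs8 (-0.19). Of 75 cytosolic ribosomal protein genes, Rplp0 (0.23), Rps2 (0.17) and Rpl12 (0.27) rose and Rpl41 fell by 0.27. Both genes of the cytosolic chaperone HSP90, Hsp90aa1 (-0.27) and Hsp90ab1 (-0.19), fell, 2 of 14 heat shock genes. For Hsp90aa1 the distance was widest at ZT14, at 200.3 ± 46.2 CPM in dark-feeding (n = 5) and 302.1 ± 21.9 CPM in ad libitum (SD, n = 6). Of the genes named here Pclo, Bsn, Stmn2, Ndufa1, Rplp0 and Rps2 passed without any single library; the others lost their call without at least 1, in between 3 of 34 cases (Vamp2) and 25 of 34 (Ndufs8), with edgeR adjusted p of at most 0.0769. With a spline of title number the sign turned for Stmn2 (0.12), Rplp0 (-0.054) and Rpl12 (-0.027), and against late ad libitum titles for Stmn2 (0.048) and Rpl41 (0.13).

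Single genes passed in several other lists, to be read beside the 4.57% of all genes that passed; a list with 1 call in 18 genes or more is near or below that share, and the calls are given as values of single genes. Herpud1, which works in the degradation of misfolded proteins at the endoplasmic reticulum, rose with a log2FC of 0.16, 1 of 18 genes of the unfolded protein response, and the proteasome subunit Psmd1 with 0.24, 1 of 34. Both turned round with title numbers above 46 only (ZT14 and ZT18), where the log2FC was -0.0063 for Herpud1 and -0.030 for Psmd1. Keap1, the sensor that holds back the antioxidant factor NRF2, averaged 61.6 ± 5.09 CPM in dark-feeding and 54.6 ± 4.67 CPM in ad libitum (SD, n = 16 and 18) and rose with 0.17, while the peroxidase Prdx1 fell by 0.29, 1 call in each direction among 19 genes. With title numbers above 46 only these were 0.17 and -0.25, not called (edgeR adjusted p = 0.324 and 0.354). Psat1, an enzyme of serine synthesis and a target of ATF4, fell by 0.22, 1 of 15. Uqcrc1 of complex III rose with 0.17 and Atp5i fell by 0.40, the 2 calls among 36 genes of complexes II to V, and Mrps11 of the mitochondrial ribosome fell by 0.25, 1 of 73. Fat2, a protocadherin of cerebellar granule cells, averaged 2752 CPM in dark-feeding and 2486 CPM in ad libitum and rose with 0.15, 1 of 15 cerebellar markers. The summed level of that list ran from 5896 to 7736 CPM in dark-feeding and from 6075 to 7060 CPM in ad libitum, and its part in the result was not tested. Leaving out 1 library ended the call of Mrps11 in 24 of 34 cases, of Fat2 in 8 and of Uqcrc1 in 3, with edgeR adjusted p of up to 0.0772, 0.0655 and 0.057.

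**Figure D2:**
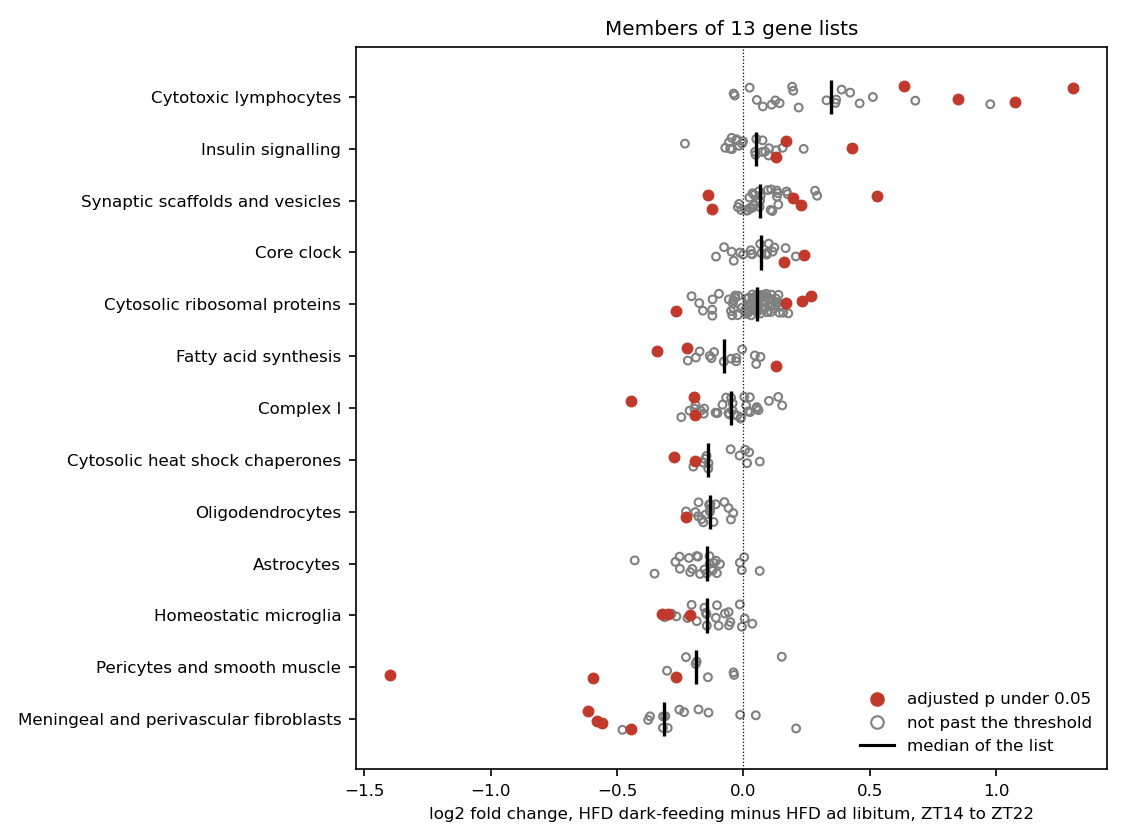
Log2 fold change of HFD dark-feeding minus HFD ad libitum over ZT14, ZT18 and ZT22 (horizontal axis) for the tested members of 13 gene lists; filled points passed an edgeR adjusted p under 0.05 and black bars are list medians. Cytotoxic lymphocyte genes lie furthest right with a median of 0.35, and meningeal and perivascular fibroblast genes furthest left with -0.31.

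By size alone, among called genes with a symbol and a mean of at least 5 CPM, the 12 largest on the higher side began with Capns1, the small subunit of calpains, Il2rb and Pclo. Capns1 averaged 11.1 ± 3.26 CPM in dark-feeding and 6.00 ± 4.25 CPM in ad libitum (SD, n = 16 and 18), with ad libitum libraries between 0 and 14.3 CPM. The late-titled ad libitum mean was 11.6 CPM and the early one 4.88 CPM, so the distance was between the early ad libitum libraries and all others. The same order of means was seen for the pseudokinase Peak1 (47.5 in dark-feeding, 50.4 late and 34.5 CPM early ad libitum), the vacuolar sorting gene Vps18 (21, 22.2 and 15.6 CPM) and Sowahb (11.4, 12.6 and 8.07 CPM). The membrane-bending protein Amph (33.3, 32.9 and 24.9 CPM), the Notch coactivator Maml3 (7.46, 7.8 and 5.12 CPM) and Pclo (331, 311 and 212 CPM) were close to it. By contrast Itpkc, a kinase of inositol trisphosphate, averaged 26.8 CPM in dark-feeding, 23.3 CPM in late and 21 CPM in early ad libitum, with a log2FC of 0.32 ± 0.06 (edgeR adjusted p = 0.00208). The teneurin Tenm2, an adhesion protein of synapses, had 22.3, 18.1 and 16.2 CPM in that order and Tmem200a 7.29, 6.09 and 5.12 CPM. These are single genes, to be read beside the share over all genes. The late ad libitum mean lay nearer the dark-feeding mean than the early one in 53.3% of the 14018 genes tested. The share was 52.9% of the 348 higher and 45.2% of the 292 lower genes. Leaving out 1 library ended the call of Capns1 in 24 of 34 cases, of Sowahb in 21, of Maml3 in 20, of Tmem200a in 18 and of Tenm2 in 3, with edgeR adjusted p of up to 0.0729, 0.0866, 0.0917, 0.0755 and 0.0563.

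On the lower side Tagln and Igf2 came first. Shisa4 followed, at 28.0 ± 4.72 CPM in dark-feeding and 39.5 ± 6.81 CPM in ad libitum (SD, n = 16 and 18; log2FC -0.50 ± 0.07, edgeR adjusted p = 0.000448), where the late ad libitum mean was 30.3 CPM and the early one 41.4 CPM. Slc10a2, a bile acid transporter, had 14.5 CPM in dark-feeding, 13.7 CPM in late and 20.9 CPM in early ad libitum. Ndufa1 (4.54, 4.62 and 6.48 CPM) and Slc13a4 (5.05, 4.88 and 7.24 CPM) gave the same picture. For Tal1, a transcription factor of blood and endothelial lineages, the late mean lay between the others (6.62, 7.38 and 9.25 CPM), as it did for the antiviral Trim5 (8.5, 10.1 and 11.5 CPM), the small heat shock protein Cryab (18.2, 22 and 24.6 CPM) and Marcksl1, an actin regulator (18.6, 22.9 and 25.2 CPM). The adenylate cyclase Adcy4 had 6.63, 7.59 and 9.24 CPM and the ATP synthase subunit Atp5i 4.38, 5.12 and 5.81 CPM in the same order. Within ZT14 and ZT18 the log2FC against late and early ad libitum titles was -0.32 and -0.58 for Tal1, -0.31 and -0.36 for Trim5 and -0.15 and -0.54 for Cryab. Without 1 library Marcksl1 and Atp5i lost their calls in 4 of 34 cases each, with edgeR adjusted p of up to 0.058 and 0.0521.

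Some of the largest fold changes belonged to genes that were on in a few libraries and at 0 in the rest. The entry gene-Mrgbp was at 0 CPM in every dark-feeding library and between 0 and 24.5 CPM in ad libitum, with a median of 0. LOC108348072 was at 0 CPM in every ad libitum library and between 0 and 22.1 CPM in dark-feeding, again with a median of 0. Counts for such entries can be split between near-identical or overlapping gene models, and no fold change is given for them.

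The schedule difference was not alike at the 3 times. Tested in a single model of group and time, 846 genes passed at ZT14 (6.04%; 553 or 3.94% higher and 293 or 2.09% lower in dark-feeding), 1 at ZT18 (0.00713%) and 20 at ZT22 (0.143%), while genes with an unadjusted p under 0.05 in edgeR numbered 3063, 1496 and 1775 at these times. The single gene at ZT18 was C1d, a cofactor of the RNA exosome, with a log2FC of -0.39. At ZT22 the 20 included Mlxipl (-0.58), Shisa4 (-0.65), Acta2 (-2.005) and Vtn (-0.51) on the lower side and the histone methyltransferase Setd2 (0.43) on the higher side. Of the 640 genes called over all times, 259 (40.5%) were also called at ZT14, which was 30.6% of the ZT14 calls. A count at a single time says nothing of a difference between times, which was tested on its own: for 37 genes (0.264%) the schedule effect varied with time at an edgeR adjusted p under 0.05. In 32 of the 37 the log2FC at ZT14 was positive and above those at both other times. These counts moved with single libraries. At ZT14 there were 348 calls without HFD dark-feeding ZT14 replicate 1, 349 without replicate 2, 482 without replicate 3, 477 without HFD ad libitum ZT14 replicate 1 and 1582 without HFD dark-feeding ZT14 replicate 4. At ZT18 the count reached 21 without HFD ad libitum ZT18 replicate 6, a late-titled library, and at ZT22 it ran from 0 (without HFD ad libitum ZT22 replicate 1, or HFD dark-feeding ZT22 replicate 5 or 6) to 221 (without HFD dark-feeding ZT22 replicate 1), and the interaction count from 2 (without HFD dark-feeding ZT14 replicate 1) to 209 (without HFD dark-feeding ZT14 replicate 4).

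Slc8a2, a sodium-calcium exchanger of neurons, had the smallest p of this test. At ZT14 the 5 dark-feeding libraries had 428, 495, 538, 584 and 608 CPM, while the 6 ad libitum libraries ran from 365 to 391 CPM around a median of 385.8 CPM. No library overlapped there, whereas at ZT18 dark-feeding averaged 445.2 ± 16.4 CPM (n = 5) and ad libitum 448.4 ± 37.7 CPM (SD, n = 6), and at ZT22 435.8 ± 18.9 CPM and 490.6 ± 40.5 CPM (n = 6 each). The number of genes without overlap at ZT14 alone was not counted. For Slc8a2 the log2FC was 0.47, -0.01 and -0.17 at ZT14, ZT18 and ZT22, with an edgeR adjusted p of 0.00253 for the interaction. Khnyn, a partner of the antiviral zinc finger protein ZAP in human cells, had log2FC of 0.24, -0.19 and -0.13 in time order (edgeR adjusted p = 0.0212). LOC100910275 had 0.55, -0.06 and -0.12 (edgeR adjusted p = 0.0223). Zfp780b, a zinc finger gene, ran the other way with -0.39, -0.02 and 0.21 (edgeR adjusted p = 0.0251), at 49.9 ± 6.6 CPM in dark-feeding (n = 5) and 65.3 ± 5.09 CPM in ad libitum at ZT14 (SD, n = 6).

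**Figure D3:**
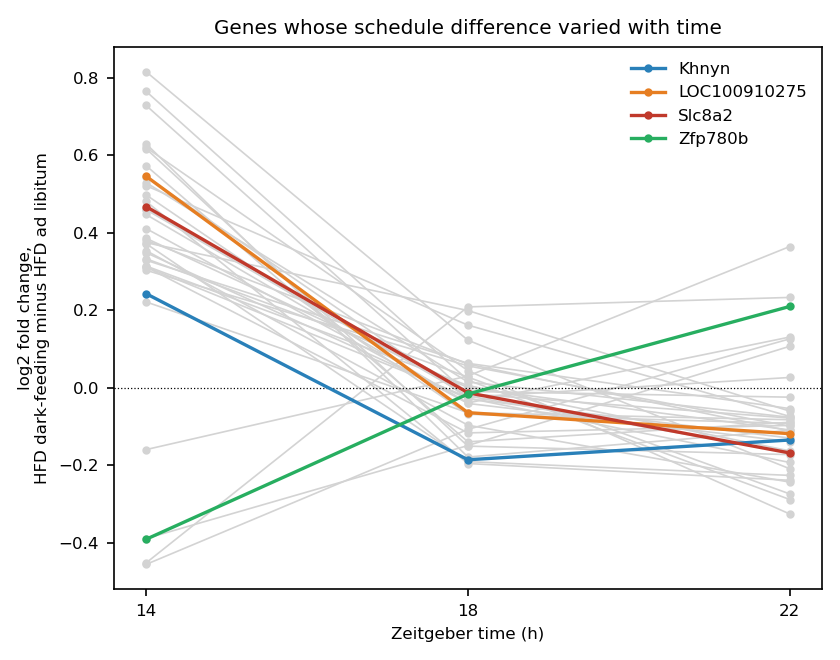
Log2 fold change of HFD dark-feeding minus HFD ad libitum (vertical axis) at ZT14, ZT18 and ZT22 for the 37 genes whose schedule effect varied with time, with the 4 smallest p-values in colour. Most lines start high at ZT14 and lie near 0 at both later times.

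Red blood cell and neutrophil genes varied widely between libraries. Their list had a median log2FC of -0.97 at ZT14, 1.16 at ZT18 and 0.04 at ZT22, and 5 of 12 tested members were lower at ZT14, while 0 of the 12 passed the interaction with time. The neutrophil genes S100a8 and Ngp reached 45.2 and 46.8 CPM in a single ad libitum library at ZT14 (replicate 5), where the group medians were 1.38 and 1.16 CPM. Hba1 ran from 49.7 to 710.5 CPM in dark-feeding and from 47.05 to 486.5 CPM in ad libitum, and the summed level of the list from 137 to 1505 CPM and from 137 to 1209 CPM in the same groups. Their part in the result was not tested. The haemoglobin genes are close copies whose reads may be divided between them.

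The number of calls moved with title order. At ZT14 and ZT18, where late-titled ad libitum libraries exist, 10 dark-feeding libraries against the 3 ad libitum libraries numbered above 46 gave 0 calls (edgeR, 2222 genes with an unadjusted p under 0.05), and the same 10 against the 9 ad libitum libraries numbered 46 or below gave 844. With 3 libraries on a side the first comparison has less precision than the second, so sizes are given too. The 348 higher genes had a median log2FC of 0.11 against the late ad libitum libraries and 0.23 against the early ones. For the 292 lower genes the medians were -0.15 and -0.26. The sign was kept against the late libraries in 298 of 348 higher and 253 of 292 lower genes; since these libraries were part of the comparison that chose the genes, this is a description only. With title number as a linear term in the model 155 genes passed, 32 of which were among the 640 (all 32 in the same direction), and the median size of the 640 was 0.15 in place of 0.19. A spline of title number gave 655 calls, 63 of which were among the 640 (all 63 in the same direction). Among the named genes Tgfbr1 (log2FC -0.37), Hsp90aa1 (-0.52) and Hsp90ab1 (-0.30) passed in this model. Libraries of a group and time with neighbouring titles, summed into 12 units, gave 1 call (Tsc22d4, not among the 640) with a median size of 0.18. Against the late ad libitum libraries alone 16 named genes had the opposite sign, among them Acta2 (0.37), Capns1 (-0.09), Peak1 (-0.11) and Stmn2 (0.048), and with a spline of title number 10 did, among them Acta2 (0.48), Il2rb (-0.37) and Prf1 (-0.31). Title order and schedule cannot be told apart for most libraries.

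**Figure D4:**
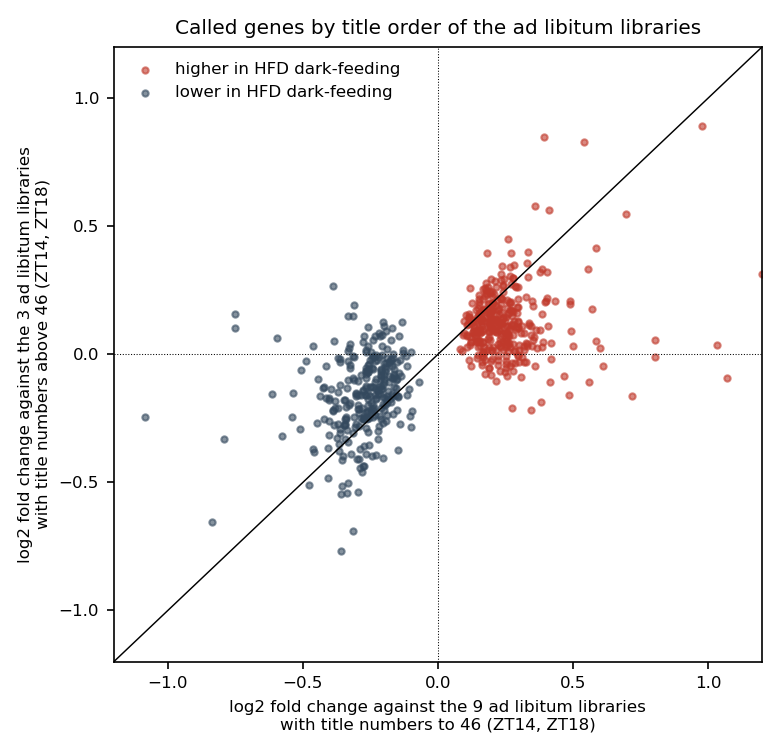
Log2 fold change of the 10 HFD dark-feeding libraries at ZT14 and ZT18 minus the 9 HFD ad libitum libraries with title numbers up to 46 (horizontal) or minus the 3 above 46 (vertical) for the 640 called genes, 6 of which lie outside the plotted range; the solid line marks equal values. Most points keep their sign on the vertical axis but lie closer to 0 than the line.

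Longer transcripts were more often on the higher side. The 348 higher genes had a median effective length of 4172 nt and the 292 lower genes 1934 nt, beside 2398 nt over all genes tested. With genes ordered by length and cut into 10 equal bins, the bin of the longest transcripts held 111 higher and 13 lower genes and that of the shortest 12 and 36. The median log2FC of the shortest and longest bins was -0.10 and 0.05 at ZT14, 0.07 and -0.02 at ZT18 and -0.07 and 0.06 at ZT22, so the slope turned round at ZT18. With an offset for transcript length fitted to each library 624 genes passed, 522 of which were among the 640.

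**Figure D5:**
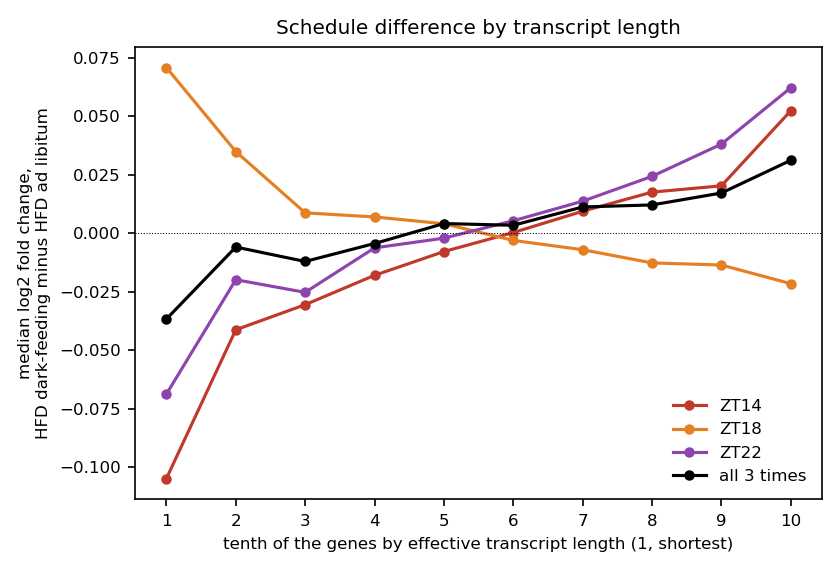
Median log2 fold change of HFD dark-feeding minus HFD ad libitum (vertical axis) in 10 equal groups of genes ordered by effective transcript length (horizontal axis), at each time and over all 3. The lines for ZT14 and ZT22 run upwards from -0.10 and -0.07 to 0.05 and 0.06, and that for ZT18 downwards from 0.07 to -0.02.

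Whether the difference was particular to the dark phase was tested against the same schedules at ZT2, ZT6 and ZT10. In the light phase itself 262 of 14105 genes passed (1.86%; 39 higher and 223 lower in dark-feeding; edgeR). The difference between the phases passed for 5 genes (0.0354%; edgeR, 2194 with an unadjusted p under 0.05), for 190 by DESeq2 and for 0 by edgeR with a title term. Kcnab2, a potassium channel beta subunit, averaged 102 ± 10.5 CPM in dark-feeding and 87.5 ± 8.8 CPM in ad libitum in the dark phase (SD, n = 16 and 18), and 85.4 ± 10.4 CPM and 93.3 ± 8.79 CPM in the light phase (n = 17 and 16). Its dark minus light difference in log2FC was 0.36 ± 0.07 (edgeR adjusted p = 0.0208). The splicing factor Srsf2 (-0.21), Cnppd1 (-0.30) and Bmi1, a Polycomb repressor (-0.32), went the other way, all with an edgeR adjusted p of 0.0208. The fifth gene, Ntrk2, the receptor of the neurotrophin BDNF, had 0.30 (edgeR adjusted p = 0.0358) and is named because the count is small. For the other called genes a difference between phases did not pass edgeR's test. The median log2FC of the 348 higher genes was 0.03 in the light phase and that of the 292 lower genes -0.05. Since these genes were chosen by their dark-phase values, which by itself makes medians smaller in other libraries, this is a description only. Without single libraries the count of 5 ran from 1 (without HFD dark-feeding ZT18 replicate 1) to 167 (without HFD dark-feeding ZT22 replicate 1).

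The same schedules on chow in the dark phase gave 0 calls by edgeR (0% of 14119 genes tested, 1558 with an unadjusted p under 0.05; 16 dark-feeding and 17 ad libitum libraries). All chow titles carry the series letter C and all HFD titles the letter H, so diet and title series cannot be told apart. On chow the running numbers of dark-feeding and ad libitum libraries were interleaved, whereas on HFD most were not. The diets thus differ in how title order goes with schedule. The difference between diets itself passed for 1 gene (0.00708%; edgeR), LOC100912380, with 1687 genes at an unadjusted p under 0.05; DESeq2 gave 74, RLE scaling 6 and a title term 0. On HFD it averaged 35.6 ± 5.46 CPM in dark-feeding and 51.4 ± 10.5 CPM in ad libitum (SD, n = 16 and 18), and on chow 48.0 ± 8.6 CPM and 45.7 ± 4.86 CPM (n = 16 and 17). The HFD minus chow difference in log2FC was -0.60 ± 0.11 (edgeR adjusted p = 0.0209). On HFD the late ad libitum libraries averaged 34.4 CPM and the early ones 54.8 CPM. The count of 1 reached 61 without HFD ad libitum ZT14 replicate 6 and 48 without HFD ad libitum ZT18 replicate 6, both late-titled.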

How the data were processed

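Bulk RNA-seq libraries labelled microglia from male Wistar rats were grouped by treatment and Zeitgeber time from the labels. Per the labels' protocols, poly(A) RNA was captured with beads, libraries kept strand and reads came from a nanoball sequencer. The submitters' processing notes name the build Rnor_6.0; the aligner is not given in the sources used here, nor is the counter. In 2 tables the authors deposited expected counts for 20361 genes (8.03% of entries not whole) and a table of FPKM values (17611 genes), which are scaled for length and depth. Raw counts had been foreseen, so these estimates were rounded before each count test. Genes carry the tables' symbols, with no coordinates.

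Genes with a mean CPM of 1 or more were scaled by TMM and tested in R 4.3.3 with edgeR 4.0.16's quasi-likelihood test, with time as a factor plus group; interactions with time, phase and diet used group by time means. CPM in the text use 1 TMM scaling over the 200 libraries. SE come from the fit and SD from libraries. Alternatives used DESeq2 1.42.0 and limma 3.58.1, other scalings, filters, title order, marker scores, transcript length offsets (added after seeing the data) and each library left out. The main, ZT14 and time interaction tests were checked on simulated counts. These were drawn independently for each library and held no effect of title order or of cell mixture. No 2 of the 34 libraries agreed within sampling noise (561 pairs, lowest chi-square per degree of freedom 2.52).

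Named genes were the 12 largest and 12 smallest log2FC among called genes with a symbol, a mean of at least 5 CPM and the same sign at all 3 times, up to 4 members per list and 4 per interaction with the smallest p, and 4 clock genes; some genes picked by this rule are not reported here. The comparison and the gene lists were chosen with earlier results of these data known.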

Additional observations from a re-analysis of the deposited data

Results flagged for a closer look

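Within the groups of 5 or 6 libraries at 1 time, 1 library stood far from the rest in 36 of 486 combinations of group and gene over 81 named genes, where chance alone flags about 1 in 20. The single late-titled ad libitum library of ZT14 (replicate 6) was the outlying one for Cnppd1 (95.8 CPM), LOC100912380 (32 CPM), Maml3 (6.74 CPM), Peak1 (56.6 CPM), Stmn2 (205.1 CPM) and Tagln (3.37 CPM). The late-titled ad libitum libraries of ZT18 were outlying for Cryab (20.8 CPM), LOC100910275 (126.9 CPM) and Slc16a1 (113 CPM) in replicate 5, and for Cnppd1 (110.7 CPM), Hsp90ab1 (546 CPM), Itpkc (26.7 CPM), Ndufa1 (3.59 CPM) and Rptor (111.1 CPM) in replicate 6. Among dark-feeding libraries, ZT18 replicate 4 was outlying for Cnppd1 (118.9 CPM), Nr1d1 (74.4 CPM), Rpl12 (37.6 CPM), Rps2 (113 CPM) and Tenm2 (14.6 CPM), and ZT18 replicates 3 and 5 for Pclo (228.6 CPM) and Zfp780b (67.4 CPM). At ZT14 dark-feeding replicate 3 was outlying for Srsf2 (1106 CPM), and at ZT22 replicate 4 for Irs1 (6.68 CPM) and Tmem200a (15.4 CPM) and replicate 2 for Ndufa1 (2.77 CPM). Early-titled ad libitum libraries were outlying at ZT14 for Slc8a2 (365.3 CPM, replicate 5), at ZT18 for Cers2 (175.1 CPM) and Igf2 (15.2 CPM) in replicate 4, Irs1 (4.46 CPM, replicate 3), Rpl41 (37.4 CPM), Tal1 (10.7 CPM) and Tmem200a (3.05 CPM) in replicate 1, and at ZT22 for Acta2 (0.686 CPM) and Stmn2 (216.5 CPM) in replicate 6, Marcksl1 (15.3 CPM, replicate 5) and Ndufs8 (9.32 CPM, replicate 2).

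The schedule effect differed between times, by edgeR's interaction test, for Slc8a2 (adjusted p = 0.00253), Khnyn (0.0212), LOC100910275 (0.0223) and Zfp780b (0.0251). It differed between the dark and the light phase, by 0.36 on the log2 scale for Kcnab2, -0.21 for Srsf2, -0.30 for Cnppd1 and -0.32 for Bmi1, and between HFD and chow, by -0.60 for LOC100912380.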

How the results depend on the processing

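The count of 640 genes was 155 with title number as a linear term, 0 with title numbers above 46 only, 1 with runs of neighbouring titles as the unit, 1 with marker scores of other cell types, 34 without ZT14, 197 without ZT18, 966 with limma's voom weights and 1047 without the 3 late-titled ad libitum libraries. The cause of these moves was not tested beyond the loss of libraries or times that each setting makes. DESeq2 gave 939 calls. Other scalings, filters, transcript length offsets and FPKM values gave between 491 and 716, HFD light-feeding added to the fit gave 733, and a spline of title number gave 655, of which 63 were among the 640. With each time fitted on its own libraries ZT14, ZT18 and ZT22 gave 218, 0 and 0 calls, and ZT18 gave 0 with no filter on low counts. The count for the phases was 0 with a title term and 190 by DESeq2, and that for the diets 6 with RLE scaling, 0 with a title term and 74 by DESeq2. Leaving out 1 library in turn gave 426 to 867 calls over all times (426 without HFD ad libitum ZT14 replicate 2), 348 to 1582 at ZT14, 0 to 21 at ZT18, 0 to 221 at ZT22, 2 to 209 for the interaction with time, 1 to 167 for the phases and 1 to 61 for the diets.

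Of the alternatives run, directions of the called genes named here turned round only under settings of title order. With a spline of title number the log2FC was -0.37 for Il2rb, 0.025 for Shisa4, -0.31 for Prf1, -0.0070 for Acaca, 0.12 for Stmn2, 0.48 for Acta2, -0.054 for Rplp0, -0.027 for Rpl12, -0.0037 for Psmd1 and 0.090 for LOC100912380. With title numbers above 46 only it was -0.091 for Capns1, -0.011 for Il2rb, -0.11 for Sowahb, -0.11 for Peak1, -0.085 for Vps18, 0.032 for Slc10a2, -0.0063 for Herpud1, 0.0097 for Mlxipl, 0.018 for Elovl1, -0.0034 for Acaca, -0.035 for Smpd3, 0.048 for Stmn2, 0.37 for Acta2, 0.13 for Rpl41, -0.030 for Psmd1 and 0.065 for LOC100912380.

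No paired analysis was possible because the titles carry running numbers and no replicate number shared between the groups. Depth limits genes near 1 CPM, where a library of 3.78 M counts (M, 10 to the power of 6) holds few reads.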
